A study of Allium mongolicum with 12 samples.

Results

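This set holds the transcripts of Allium mongolicum roots whose level stood above that of control roots in every library at every sampled time of a mixed saline-alkali stress. Levels are given as CPM, an estimated count divided by its library total and multiplied by 1000000. A transcript entered the set if its mean was at least 5 CPM over all libraries, if each of the 9 stressed libraries lay above the highest control library, and if each of the 3 stressed group means was at least 2 times the control mean. Of 98328 transcript features in the table, 20612 reached 5 CPM, 1040 of these (5.05%) had every stressed library above every control library, and 162 (0.786%) also met the fold criterion. The limit of 200 members that the rule sets was not reached, so all 162 are described.

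Allium mongolicum is a wild onion of dry steppe and desert margins. Seedlings grown for 45 days in soil and then held for 7 days in diluted nutrient solution were exposed to NaCl, Na2SO4, NaHCO3 and Na2CO3 mixed 1:9:9:1 at 150 mmol/L in total. Roots were taken at 0 h (CK, not exposed) and at 3 stress times named T24 (24 h), T48 (48 h) and T72 (72 h), with 3 libraries per group and 12 in all. Each group drew on 20 seedlings, but their division among libraries is not given, and a p-value here reflects variation among libraries that could be partly or wholly technical. No unstressed roots of the later hours are among the samples, so stress and the passing of time (plant age, hour of harvest) cannot be told apart in any difference from CK.

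Such a solution acts on a root in several ways. Sodium enters the cells and competes with potassium, the dissolved salts hold back water uptake, and the carbonates raise the pH around the root, which hinders proton-driven transport and the uptake of iron and phosphate. Roots of other plants are known to answer with transcripts for sodium export and storage in the vacuole, for compatible solutes, for enzymes against reactive oxygen, and for lignin and other phenylpropanoids, the pathway that the study names as its subject. The table gives assembly IDs and no gene names or sequences, so none of the members could be assigned to these or other functions, and members are identified by their rank from 1 to 162 in the size of their smallest rise. The rank is by the smallest of the 3 values of log2((stressed mean + 1)/(CK mean + 1)). Root markers could not be examined for the same reason. In bulk RNA of whole roots, a change in the number of cells of a type and a change in RNA per cell cannot be told apart.

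Library totals ran from 23099287 to 26388120 estimated counts, so 3 counts corresponded to 0.114 to 0.13 CPM. No member had all of its control libraries under 3 counts, and 5 members had at least 1 control library under it. The libraries differed in how well they matched their group. The mean correlation of log2 CPM with the rest of the group was 0.99 for each T24 library, 0.935 to 0.943 in T72 and 0.906 to 0.92 in CK. T48 replicate 2 had a correlation of 0.864 with the other T48 libraries and 0.903 with the CK libraries, whereas T48 replicates 1 and 3 had 0.854 and 0.856 with CK. The biological coefficient of variation over features at 5 CPM or more was 36.5% in CK, 8.25% in T24, 39.3% in T48 and 27.6% in T72. T48 replicate 2 stands apart from its group and the T24 libraries are far more alike than those of other groups. Many values that use them are therefore followed by the value without T48 replicate 2 or with fewer T24 libraries. Ratios to CK by CK level and of single members are given with all libraries only.

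The typical member was a transcript of modest level that stood about 3 times higher in stressed roots. The median member had 13.6 CPM in T24, 11.8 CPM in T48 and 14.1 CPM in T72, against 3.45 CPM in CK. The median ratio to CK was 3.13 at 24 h, 2.95 at 48 h and 3.35 at 72 h, and the largest ratio was 22.9, 27.7 and 42.1 at these times. Without T48 replicate 2 the median ratio at 48 h was 3.29. All 3 ratios were at least 3 in 48 members, at least 4 in 22 and at least 8 in 5, and 23 members reached 8 at 1 or more times. These values chose the members and are a description only. At the edge of the rule, the members just inside had a smallest ratio of 2.002, 2.002 and 2.003, and the separated features just outside had 1.998, 1.996 and 1.989. A further 878 features at 5 CPM or more were separated from CK in all libraries with a ratio under 2 at 1 or more times, and 972 features below 5 CPM met both other criteria.

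**Figure D1:**
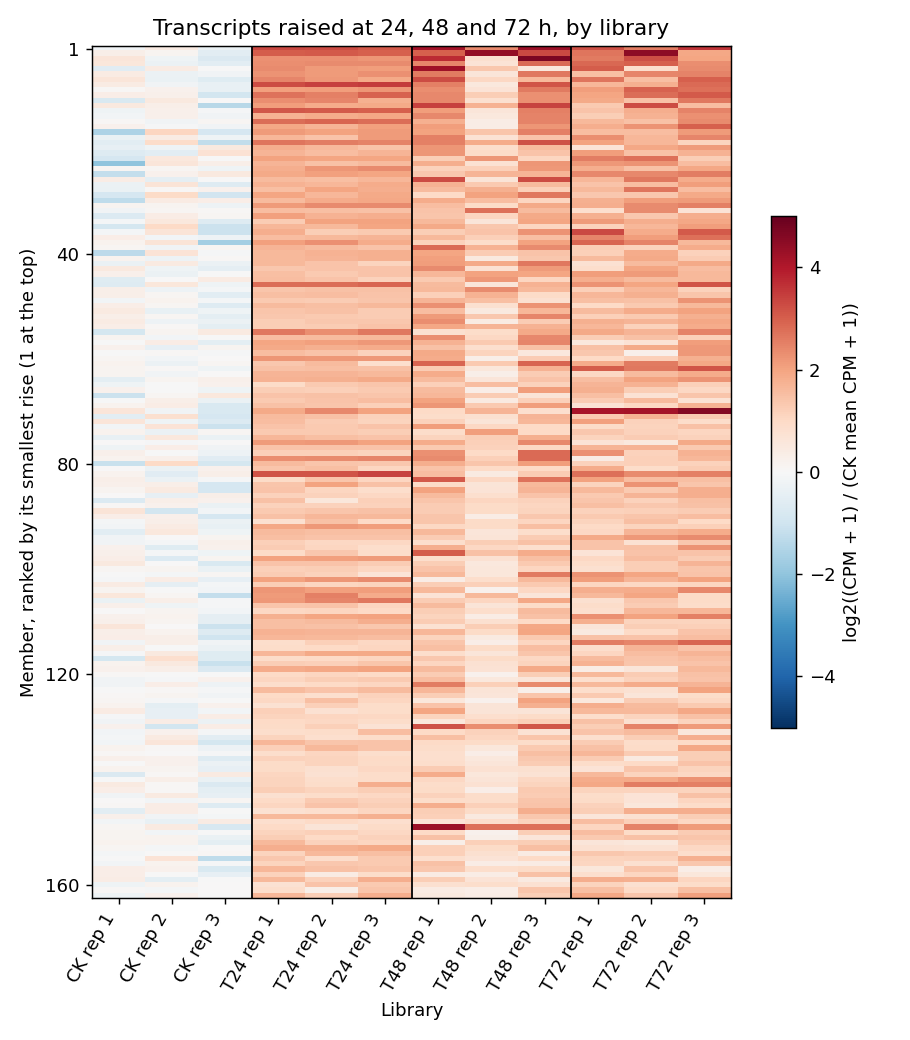
Level of the 162 members (rows, ranked by smallest rise) in the 12 libraries (columns), as log2 of (CPM + 1) over (CK mean CPM + 1). Every stressed library is above 0 for every member, as the rule requires, and T48 replicate 2 is the palest of the 9.

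Summed over the set, the members took 0.129% to 0.171% of a CK library, 0.487% to 0.499% of a T24 library, 0.423% to 0.544% of a T48 library and 0.467% to 0.571% of a T72 library. The sums averaged 1536 ± 219 CPM in CK, 4942 ± 65.5 CPM in T24, 5022 ± 688 CPM in T48 and 5216 ± 521 CPM in T72 (SD, n = 3 each). The 3 stressed means lay within 1 SD of the T48 libraries of each other, an SD that came largely from T48 replicate 2. Without it the T48 sum averaged 5419 ± 34.7 CPM (SD, n = 2), above all T24 libraries and within the range of the T72 libraries. A single member, ranked 89, gave 12% of the summed stressed level, with 400, 134 and 236 CPM in CK, 636, 681 and 704 CPM in T24, 619, 496 and 561 CPM in T48 and 576, 585 and 626 CPM in T72. Without it the summed ratio to CK was 3.34 at 24 h, 3.49 at 48 h and 3.61 at 72 h, against 3.22, 3.27 and 3.4 with it. With all members but without T48 replicate 2, the summed ratio at 48 h was 3.53. The 10 members with the most counts gave 43.9% of the sum. Estimated counts were not divided by transcript length, so these shares describe counts and not molecules.

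**Figure D2:**
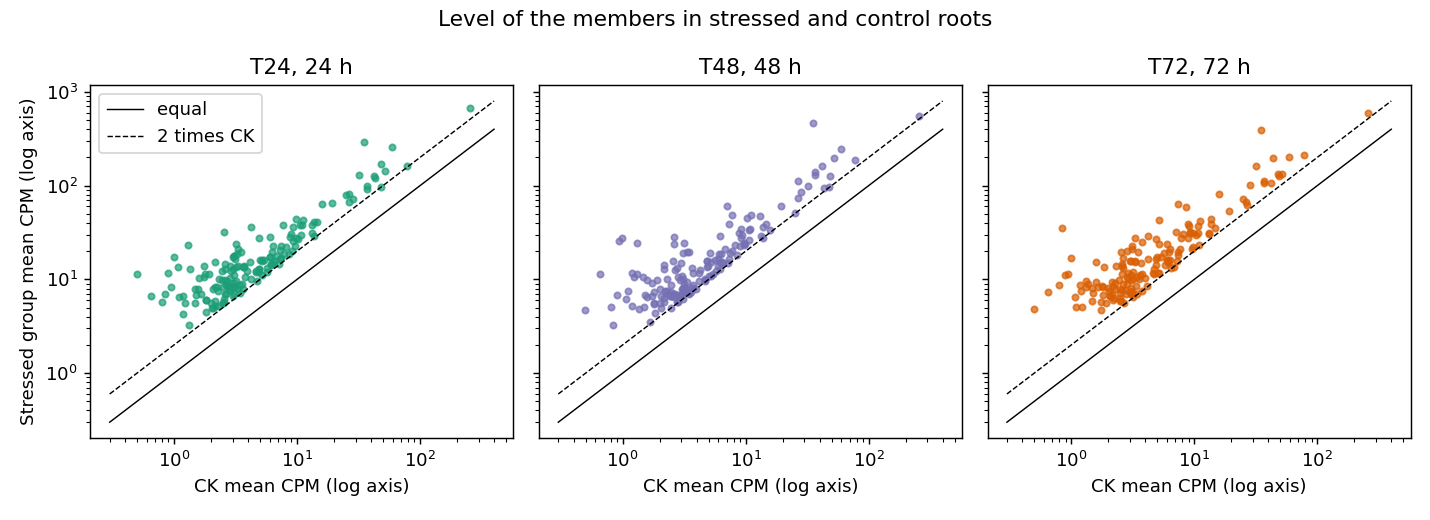
Mean CPM of each member in stressed roots (vertical axis) against control roots (horizontal axis), both on log axes, at 24, 48 and 72 h. Every point lies on or above the dashed line of 2 times CK, as the rule requires, and the highest ratios are at the low end of the CK axis.

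Members that were nearly silent in control roots had the largest median ratios. In the 7 members with a CK mean below 1 CPM the median ratio was 10.2 at 24 h, 9.46 at 48 h and 12.1 at 72 h. The 93 members with a CK mean of 1 to 5 CPM had median ratios of 3.65, 2.99 and 3.74, the 46 at 5 to 20 CPM had 2.82, 2.66 and 2.92, and the 16 at 20 CPM or more had 2.76, 3.05 and 2.81. A mean of 5 CPM over all libraries was required, so a member with a CK mean below 1 CPM could enter only with a high ratio. This order is therefore partly fixed by the rule. A low CK mean was not needed for a high ratio, since the smallest ratio reached 8.37 in a member at 20 CPM or more in CK.

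The member with the largest smallest rise was TRINITY_DN33907_c0_g1_i11_1. It had 0.767, 1.62 and 0.598 CPM in CK, 18.7, 18.3 and 15.5 CPM in T24, 35.1, 9.59 and 37.9 CPM in T48, and 17.1, 11.1 and 22.5 CPM in T72. Its lowest stressed library was 5.92 times its highest CK library, the widest gap among the members. The group means were 0.995 ± 0.548 CPM in CK, 17.5 ± 1.75 CPM in T24, 27.5 ± 15.6 CPM in T48 and 16.9 ± 5.71 CPM in T72 (SD, n = 3 each), which gives ratios to CK of 17.6, 27.7 and 17. The high T48 mean came with T48 replicate 2 well below the other T48 libraries, and the T24 and T72 libraries overlapped. None of its differences between stress times was called, with edgeR adjusted p of 0.569 at 48 h against 24 h, 0.502 at 72 h against 48 h and 0.990 at 72 h against 24 h.

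The second member, TRINITY_DN33440_c0_g2_i2_3, was already well detected in control roots. It had 42.5, 38.8 and 23.6 CPM in CK, 295, 297 and 286 CPM in T24, 286, 762 and 350 CPM in T48, and 228, 801 and 135 CPM in T72. The means were 35 ± 10 CPM in CK, 293 ± 5.48 CPM in T24, 466 ± 258 CPM in T48 and 388 ± 361 CPM in T72 (SD, n = 3 each), with ratios to CK of 8.37, 13.3 and 11.1. In contrast to the first member, it was T48 replicate 2 that was high, together with T72 replicate 2, and the other 48 h and 72 h libraries lay between 135 and 350 CPM. The edgeR adjusted p between stress times was 0.647 at 48 h against 24 h, 0.868 at 72 h against 48 h and 0.894 at 72 h against 24 h.

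Ranks 3, 5 and 13, chosen after their values were seen from the members with a CK mean below 1 CPM, had a wide spread at 48 h. Rank 3 had 1.98, 0.685 and 0.164 CPM in CK, 8.41, 8.39 and 8.07 CPM in T24, 24.4, 2.34 and 49.9 CPM in T48, and 10.7, 17 and 6.59 CPM in T72. Its T48 replicate 2 was only just above its highest CK library, while the other T48 libraries held its highest values. Rank 5 had 0.128, 1.19 and 0.624 CPM in CK, 7.5, 6.21 and 6.08 CPM in T24, 30, 3.22 and 1.41 CPM in T48, and 12.3, 2.02 and 7.57 CPM in T72, so its 48 h mean rested on replicate 1. Rank 13 had 0.281, 0.761 and 0.446 CPM in CK, 11.8, 11.5 and 10.7 CPM in T24, 5.31, 1.28 and 7.48 CPM in T48, and 3.02, 4.21 and 7.28 CPM in T72, with its T24 libraries above all others.

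**Figure D3:**
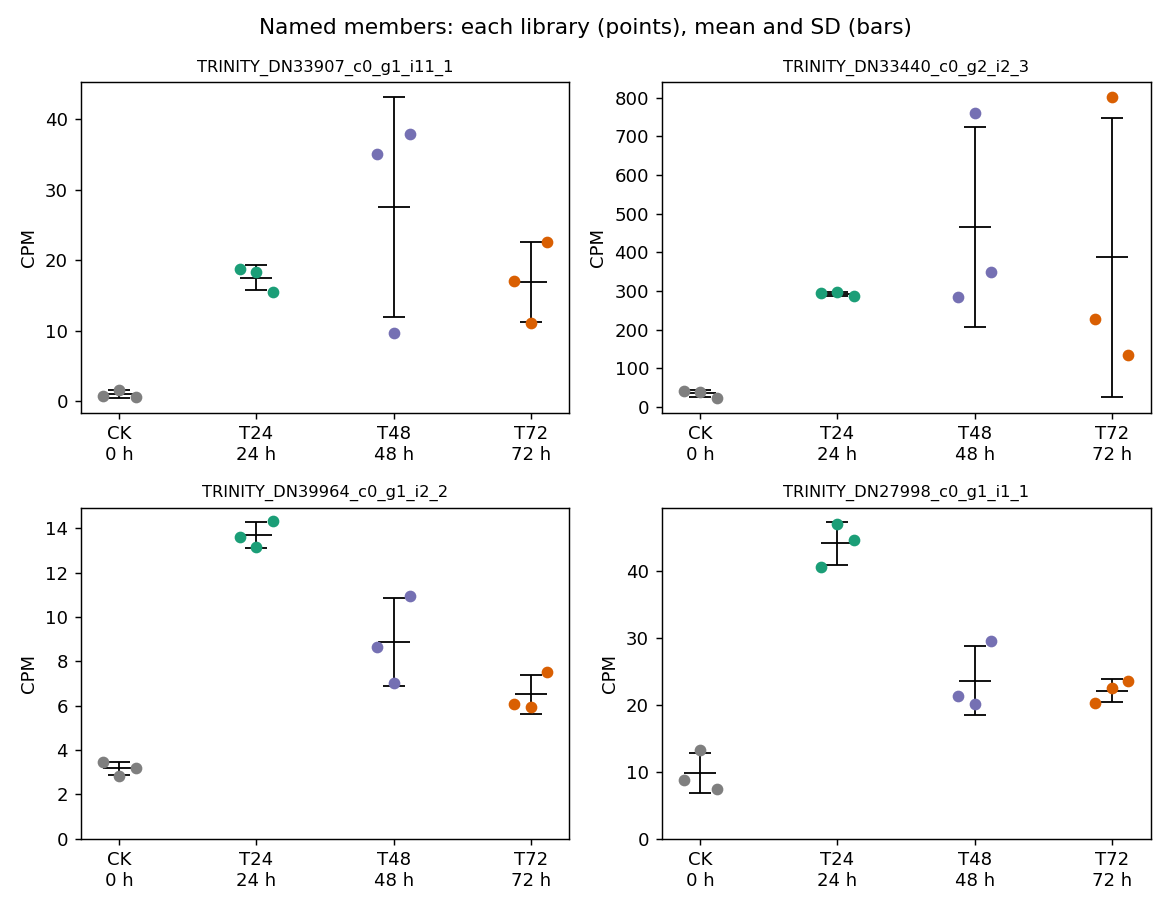
CPM of the 4 members named by their ID in each library, with the group mean (horizontal mark) and SD (bars) at 0, 24, 48 and 72 h. The upper pair have the largest smallest rise, with wide spread at 48 h and 72 h, and the lower pair were highest at 24 h in all 3 T24 libraries.

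Separation from the control libraries was narrow in many members. The lowest stressed library was at a median of 1.3 times the highest CK library, at least 1.1 times in 134 members, at least 1.5 times in 50 and at least 2 times in 7. In 83 of the 162 members (51.2%) the lowest stressed library was T48 replicate 2, which was also the lowest stressed library in 28.1% of all features at 5 CPM or more. Member by member, T48 replicate 2 stood at a median of -0.74 on the log2 scale against the mean of the other T48 libraries, and at -0.095 over all features at 5 CPM or more. It was below both other T48 libraries in 120 members (74.1%, against 44.9% of all features at that level) and above both in 15 members (9.26%, against 32.8%). Its median log2 ratio to the CK mean was 1.05, against 1.61 to 1.86 in the other 8 stressed libraries. Members were chosen by their distance from CK, and T48 replicate 2 was the T48 library most like CK. Its position among members is therefore not independent of the rule, and these values are a description only. Whether T48 replicate 2 was exposed or sampled differently was not tested.

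**Figure D4:**
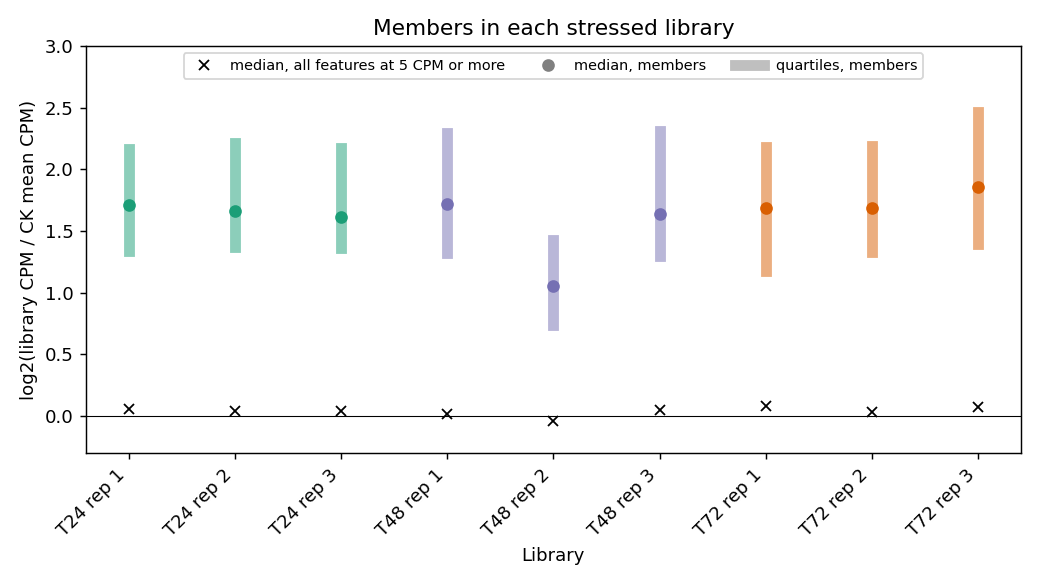
Log2 ratio of each stressed library to the CK mean: points are the median of the 162 members, thick bars their quartiles, and crosses the median of all features at 5 CPM or more. The members sit between 1.61 and 1.86 in 8 libraries and at 1.05 in T48 replicate 2, and the crosses stay between -0.04 and 0.08.

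The size of the set depended on this library and on the controls. Without T48 replicate 2, 358 features met the rule, 156 of the 162 members among them. Without CK replicate 1 it was met by 328 features and without CK replicate 2 by 411, with 150 and 147 of the members among them. Without CK replicate 3 it was met by 243 features, 126 of them members. With fewer libraries to separate, more features can pass. Among features at 5 CPM or more with all 3 ratios at 2 or above, 274 failed because libraries overlapped, and in 108 of these T48 replicate 2 was the only stressed library to reach down into the CK range.

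Scaling also mattered at the edge. With trimmed-mean (TMM) factors, which lay between 0.937 and 0.949 in CK and between 0.942 and 1.05 in stressed libraries, 117 features met the rule, all of them among the 162. Under these factors all 162 members kept stressed means above the CK mean, with the smallest ratio at 1.83, while 149 kept every stressed library above every CK library and 129 kept all ratios at 2 or more. With median-of-ratios (RLE) factors 107 features met the rule, again all of them members, and the median ratios to CK were 2.81, 2.72 and 2.98.

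The rule asked that members be high at each time and did not compare the stress times directly. It left out any feature near the CK level at 1 or more times, which the background of features at 5 CPM or more includes. Shares of members by time, and of members that rose or fell, are therefore not independent of the rule. The 3 stressed means lay within 1.5 times of each other in 81 members (50%, against 63.2% of all features at 5 CPM or more), and more than 3 times apart in 8. The highest of the 3 means was at 72 h in 70 members, at 24 h in 57 and at 48 h in 35, which is 43.2%, 35.2% and 21.6%. Over all features at 5 CPM or more these shares were 38.4%, 26.1% and 35.4%. The lowest stressed mean was at 48 h in 78 members (48.1%, against 40% of all features at 5 CPM or more). These tallies moved with T48 replicate 2. Without it the highest mean was at 72 h in 60 members (37.0%), at 24 h in 43 (26.5%) and at 48 h in 59 (36.4%), against 36.3%, 26.7% and 36.9% of all features at 5 CPM or more, and the lowest was at 48 h in 59 members (36.4%, against 38.7%). The means then lay within 1.5 times of each other in 89 members (54.9%, against 63.5%). The median coefficient of variation of members between libraries (SD over mean) was 0.348 in CK, 0.0851 in T24, 0.394 in T48 and 0.252 in T72, and over all features at 5 CPM or more it was 0.186, 0.0621, 0.208 and 0.134.

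Differences between stress times were tested in one edgeR quasi-likelihood fit over 76273 features and all 12 libraries, and a feature was called at a Benjamini-Hochberg adjusted p below 0.05. The fit held 1 estimate of spread per feature, shared by all groups. Each SE and p between 2 stress times therefore also rests on libraries outside these groups, among them the closely alike T24 libraries. All 162 members passed the fit's filter on low counts. In the F test among 24, 48 and 72 h, 13 members (8.02%) were called. The same test called 4.85% of all features tested and 7.97% of those at 5 CPM or more, so the members' share was close to the second of these. The 149 members without a call are not shown to be constant. The unadjusted p of the F test was below 0.05 in 35 of the 162, and in 13583 of all 76273 features tested. Leaving out T24 replicate 1, 2 or 3 reduced the 13 calls to 5, 4 and 5. Leaving out T48 replicate 1 gave 7, leaving out T72 replicate 1, 2 or 3 gave 6, 8 and 6, and averaging the T24 libraries gave 0. Leaving out T48 replicate 2 gave 15. Calls over features at 5 CPM or more moved as well, to 2.92%, 2.75% and 2.77% without a T24 library, 5.08% without T48 replicate 1, 3.32%, 5.84% and 4.25% without a T72 library, 0.359% with T24 averaged and 7.45% without T48 replicate 2.

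Between 24 h and 72 h, 3 members rose and 2 fell (edgeR, adjusted p below 0.05). That is 1.85% and 1.23% of the members. The background was 0.152% rises and 1.03% falls over all features tested, and 0.471% and 0.505% over features at 5 CPM or more. The 72 h libraries lay wholly above the 24 h libraries in 32 members (19.8%) and wholly below in 23 (14.2%), against 19.6% and 18.9% of features at 5 CPM or more and 12.0% and 16.6% of all features tested. The median log2 change of the members was 0.09, with 0.02 over features at 5 CPM or more, and the members' median was 0.0053 without T72 replicate 2 and 0.0073 without T72 replicate 3. All 5 calls were lost without any one of T24 replicates 1, 2 or 3, and with the T24 libraries averaged into 1. Without T72 replicate 1, 2 or 3 they numbered 1, 2 and 1, while DESeq2 called 10 members (6.17%) and limma with a variance per group 21 (13.0%). Over features at 5 CPM or more DESeq2 called 4.62%, limma 8.64% and edgeR with all libraries 0.976%. Without T72 replicate 1, 2 or 3 edgeR called 0.316%, 0.748% and 0.563% of these features. Without T24 replicate 1, 2 or 3 it called 0.180%, 0.170% and 0.189%. With the T24 libraries averaged, 0 of all 93129 features tested were called, so the loss is not particular to the members.

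The members called higher at 72 h than at 24 h had overlapping libraries at 24 h and 48 h. Rank 114 had 7.51, 10.6 and 7.52 CPM in CK, 16.7, 20.7 and 18.4 CPM in T24, 23.9, 11 and 19.1 CPM in T48, and 55.4, 51.2 and 70.3 CPM in T72. The T24 and T48 libraries overlapped and every T72 library was far above them. It was higher at 72 h than at 24 h by 1.67 ± 0.24 on the log2 scale (SE, edgeR adjusted p = 0.00892). Rank 62 followed the same order, with 8.25, 7.67 and 6.3 CPM in CK, 22.2, 23.1 and 22.5 CPM in T24, 19.2, 11.5 and 27.4 CPM in T48, and 68.1, 51.8 and 72.5 CPM in T72. Its change against 24 h was 1.51 ± 0.24 (SE, edgeR adjusted p = 0.0121). Rank 140 had 5.03, 6.64 and 3.91 CPM in CK, 12.3, 10.4 and 10.6 CPM in T24, 11.8, 8.7 and 11.8 CPM in T48, and 21.4, 22 and 28.2 CPM in T72, a change of 1.11 ± 0.21 (SE, edgeR adjusted p = 0.0294). These 3 members were chosen for description by their calls.

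The 2 members that fell after 24 h were TRINITY_DN39964_c0_g1_i2_2 and TRINITY_DN27998_c0_g1_i1_1. TRINITY_DN39964_c0_g1_i2_2, rank 153, had 3.46, 2.84 and 3.2 CPM in CK, 13.6, 13.1 and 14.3 CPM in T24, 8.62, 7.02 and 10.9 CPM in T48, and 6.08, 5.92 and 7.53 CPM in T72. All of its T48 and T72 libraries lay below its T24 libraries and above its CK libraries, and it was lower at 72 h than at 24 h by a log2 change of -1.07 ± 0.19 (SE, edgeR adjusted p = 0.0231). TRINITY_DN27998_c0_g1_i1_1, rank 92, had 8.8, 13.2 and 7.4 CPM in CK, 40.7, 47.1 and 44.7 CPM in T24, 21.4, 20.1 and 29.5 CPM in T48, and 20.3, 22.5 and 23.7 CPM in T72. Its change was -0.99 ± 0.20 (SE, edgeR adjusted p = 0.0443), and its T48 and T72 libraries overlapped. Over all alternatives the adjusted p of the first ran from 8.6e-07 to 1 and that of the second from 0.000409 to 1, with the value of 1 where the T24 libraries were averaged. The log2 changes themselves ran from -1.18 to -1.01 and from -1.05 to -0.92 over the alternatives.

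Between 48 h and 72 h, 8 members rose and 0 fell (edgeR, adjusted p below 0.05). The unadjusted edgeR p was below 0.05 in 27 of the 162 members, and in 11691 of all 76273 features tested. DESeq2 called 11 higher and 2 lower (8.02% together, against 16.2% of features at 5 CPM or more), and limma 8 and 0 (4.94%, against 6.95%). The rises were 4.94% of the members, beside 1.04% of all features tested and 3.11% of those at 5 CPM or more, and falls were called in 1.31% and 3.95% of these backgrounds. The 72 h libraries lay wholly above the 48 h libraries in 20 members (12.3%, against 18.7% of features at 5 CPM or more) and wholly below in 6 (3.70%, against 14.0%). A fall to near the CK level at 72 h, or a rise from it at 48 h, was excluded by the rule. Over all features tested these shares were 11.5% and 8.93%. The members' median log2 change was 0.14, and it was -0.01 over features at 5 CPM or more. Without T48 replicate 2, 4 members rose, 2 fell and the members' median was 0.04. Of 20590 features at 5 CPM or more, 608 then rose and 574 fell. The members' median was 0.24 without T48 replicate 1 and 0.07 without T72 replicate 3. The 8 rises became 4, 5 and 4 without T24 replicate 1, 2 or 3, 5 without T48 replicate 1, 3 without T72 replicate 1 or 3, and 0 with the T24 libraries averaged. Rises among features at 5 CPM or more moved too, from 640 to 303, 306 and 305 without T24 replicate 1, 2 or 3. They numbered 354 without T48 replicate 1, 169 and 229 without T72 replicate 1 and 3, and 75 with the T24 libraries averaged.

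The largest rise of this step was in rank 70, which had 1.8, 0.642 and 0.0795 CPM in CK, 5.83, 8.83 and 6.52 CPM in T24, 2.63, 4.92 and 2.3 CPM in T48, and 31.3, 32 and 42.7 CPM in T72. Its T48 libraries lay below its T24 libraries, a difference that was not called (edgeR adjusted p = 0.492), and it reached 42.1 times the CK mean at 72 h, the highest ratio in the set, though its CK replicate 3 was below 3 counts. The log2 change from 48 h to 72 h was 3.36 ± 0.64 (SE, edgeR adjusted p = 0.0231). Rank 94 was a well-detected member, with 38.7, 43.4 and 48.2 CPM in CK, 126, 118 and 119 CPM in T24, 105, 69.3 and 107 CPM in T48, and 163, 196 and 226 CPM in T72. It rose by 1.03 ± 0.16 on the log2 scale from 48 h to 72 h (SE, edgeR adjusted p = 0.0105), and its T24 libraries lay above its T48 libraries. The other 6 rises ran from 1.03 to 1.70, and 3 of the 8 members had also risen against 24 h.

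Between 24 h and 48 h, 2 members rose and 1 fell (edgeR, adjusted p below 0.05), which is 1.23% and 0.617% of the members. Over all features tested 0.467% rose and 1.5% fell, and over features at 5 CPM or more 1.51% and 1.47%. The 48 h libraries lay wholly above the 24 h libraries in 9 members (5.56%, against 14.6% of features at 5 CPM or more) and wholly below in 33 (20.4%, against 19.8%). Over all features tested these shares were 9.59% and 17.1%. The median log2 change was -0.07 over members and 0.04 over features at 5 CPM or more, and the members' median was 0.03 without T48 replicate 2, -0.20 without T48 replicate 1 and -0.13 without T48 replicate 3. Without T48 replicate 2, 7 members rose and 1 fell. Without T48 replicate 1 or T48 replicate 3, 0 rose and 2 fell, which ends both rises. Without CK replicate 2 the counts were 2 and 3, and without T24 replicate 1, 2 or 3 the calls numbered 1, 0 and 0. Of features at 5 CPM or more, 310 rose and 302 fell with all libraries, and 334 and 366 without CK replicate 2. Without T48 replicate 1, 2 or 3 these numbers were 150 and 177, 241 and 393, and 369 and 201. Without T24 replicate 1, 2 or 3, 0.359%, 0.364% and 0.418% of them were called, against 2.97% with all libraries.

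Both members that were higher at 48 h had their lowest stressed mean at 24 h. Rank 149 had 1.49, 2.13 and 0.323 CPM in CK, 3.61, 2.59 and 3.53 CPM in T24, 43.9, 14.5 and 14.6 CPM in T48, and 3.82, 11.8 and 9.25 CPM in T72. Its T48 replicate 1 was far above its other libraries, and the log2 change was 2.95 ± 0.66 (SE, edgeR adjusted p = 0.0468). Rank 130 had 8.41, 3.28 and 9.56 CPM in CK, 14.7, 17.3 and 12.4 CPM in T24, 73.4, 39.5 and 69.5 CPM in T48, and 18.1, 44.2 and 34.3 CPM in T72, a change of 2.07 ± 0.41 (SE, edgeR adjusted p = 0.0286). The member that fell was rank 82, with 2.94, 1.36 and 3.28 CPM in CK, 30.3, 30 and 35.3 CPM in T24, 9.2, 3.87 and 7.51 CPM in T48, and 23.1, 17.1 and 19.1 CPM in T72. It fell by 2.18 ± 0.33 on the log2 scale at 48 h against 24 h (SE, edgeR adjusted p = 0.0085) and was higher again at 72 h by 1.49 ± 0.32 (SE, edgeR adjusted p = 0.0385), the 1 member called in both steps.

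**Figure D5:**
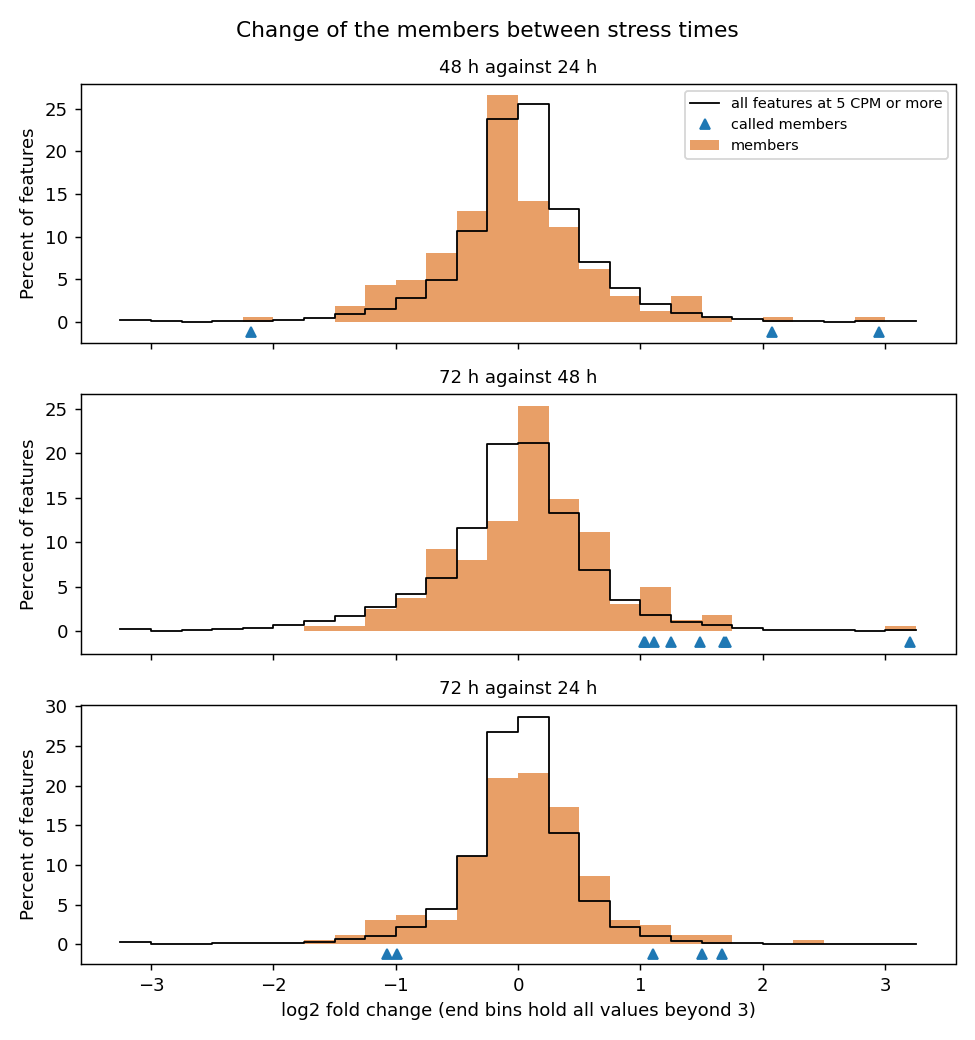
Log2 fold change between stress times of the members (bars) and of all features at 5 CPM or more (line), in percent of each set, with triangles at the members called by edgeR. Both distributions centre near 0, and the called members lie at changes of about 1 or more in size.

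The feature IDs carry some structure that the rule did not use. They have the form that a de novo transcript assembler gives, with a component, a gene and an isoform number, and a suffix from 1 to 4 that the file does not explain. Suffixes 1, 2, 3 and 4 were carried by 49, 31, 34 and 48 members, which is 30.2%, 19.1%, 21% and 29.6%, and by 27.2%, 23.8%, 24% and 25% of features at 5 CPM or more. The table holds 1 feature per assembly gene when the suffix is counted as part of the name. Whether features with different suffixes stem from the same gene was not tested. The 162 members came from 160 components on the same count. Features of a component share assembled sequence, so reads may be split among them, and 4 members shared a component with another member. The other features of the members' components numbered 86, of which 16 reached 5 CPM. Of these 16, the 3 stressed means all lay above the CK mean in 10 and all below in 2, while over all features at 5 CPM or more this held for 35.9% and 25.7%. These 16 may share reads with members chosen for their rise, so their tally is not independent of the rule.

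The mirrored rule, with both the separation and the fold criterion turned round, was met by 121 features. Their median level was 18.7 CPM in T24, 18.2 CPM in T48 and 13.2 CPM in T72, against 59.3 CPM in CK, so these started from a higher level than the 3.45 CPM of the raised members. A feature at 5 CPM in the mean can be near 0 in either the stressed or the control group, and the difference in starting level is partly fixed by the rules.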

How the data were processed

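Roots of 4 groups with 3 libraries each were sequenced with paired 150-base reads, with Trimmomatic named in the submitters' processing notes. The sources used here do not name the assembler, aligner or counting tool. The table deposited by the authors holds values per assembled feature, which were used as estimated counts. Exactly 1 of 990048 values above 0 is a whole number, so the values are not plain read counts. Whether they were rescaled or normalised after counting is not known. If they were, the rounding and the floor of 3 counts apply to rescaled values. All 12 columns matched samples by title. The members and lists were chosen with earlier results of these data known. CPM used library totals. For tests, estimated counts were rounded, features were kept with filterByExpr (76273 of 98328) and scaled with TMM factors, and one edgeR 4.0.16 quasi-likelihood model in R 4.3.3 used all 12 libraries, with 1 mean for each group. All groups shared 1 estimate of spread per feature. SE is the log2 change divided by the root of the F statistic. Differences from CK were not tested because they chose the members. The IDs named are the 2 members with the largest smallest rise and the 2 called lower at 72 h than at 24 h with the largest fall. Alternatives were RLE factors, library totals alone, DESeq2 1.42.0, limma 3.58.1 with a variance per group, no filter and a stricter one (1 CPM in 3 libraries, mean count 10), a replicate block, only stressed libraries, averaged T24 libraries and leaving out each library. The 48 h levels and tallies without T48 replicate 2 were an alternative chosen after seeing the data. The floor of 3 counts covers counting error only.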

Additional observations from a re-analysis of the deposited data

Results flagged for a closer look

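The level of 12 members differed between at least 1 pair of stress times (edgeR quasi-likelihood test, adjusted p below 0.05). The F test among the stress times called 1 further member. How many of all features were called in at least 1 pair was not counted. Beside the share of features at 5 CPM or more, the calls were 5 members (3.09%, against 0.976%) between 24 h and 72 h, 8 (4.94%, against 7.06%) between 48 h and 72 h, 3 (1.85%, against 2.97%) between 24 h and 48 h, and 13 (8.02%, against 7.97%) in the F test. Between 24 h and 72 h the log2 change was 1.67 in rank 114, 1.51 in rank 62 and 1.11 in rank 140, and it was -1.07 in rank 153 and -0.991 in rank 92. Between 48 h and 72 h it was 3.36 in rank 70, 1.7 in rank 62, 1.68 in rank 114, 1.49 in rank 82, 1.25 in rank 109, 1.11 in rank 140, 1.03 in rank 37 and 1.03 in rank 94. Between 24 h and 48 h it was 2.95 in rank 149, 2.07 in rank 130 and -2.18 in rank 82. The call of ranks 62, 94 and 114 between 48 h and 72 h held in 20 of 21 alternatives each, and that of rank 149 in 9 of 21.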

How the results depend on the processing

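The rule gave 592 features at a minimum of 1 CPM and 87 at 10 CPM, 435 at 1.5 times the CK mean and 48 at 3 times, and 107 with RLE factors. The summed level in T24 was 4805 CPM with TMM factors. With the T24 libraries averaged into 1, 0 members were called higher or lower at 48 h than at 24 h, higher at 72 h than at 48 h, higher or lower at 72 h than at 24 h, or in the F test. Against 2 members higher and 1 lower at 48 h than at 24 h, there were 1 higher without a filter, 2 lower with the stricter filter, 4 lower with only stressed libraries, 6 and 9 with DESeq2, and 7 lower with limma. Higher and lower together, DESeq2 called 9.26% of the members (against 9.78% of features at 5 CPM or more) and limma 6.17% (against 7.38%). With only stressed libraries these shares were 4.32% and 5.96%. Against 0 members lower at 72 h than at 48 h, there was 1 with only stressed libraries and 2 with DESeq2. Of features at 5 CPM or more, these settings called 939 of 20588 and 1836 of 20590 lower. Against 3 higher and 2 lower at 72 h than at 24 h, there were 5 higher with only stressed libraries, 1 lower without a filter, 6 and 4 with DESeq2, and 8 and 13 with limma. The F test called 24 members with DESeq2 (14.8%, against 18.5% of features at 5 CPM or more) and 30 with limma (18.5%, against 20.1%), and 13 with edgeR.

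Leaving out 1 library at a time, the rule gave 150 to 411 features. Members higher at 48 h than at 24 h numbered 0 to 7 and lower 0 to 3, higher at 72 h than at 48 h 3 to 9 and lower 0 to 2, higher at 72 h than at 24 h 0 to 4 and lower 0 to 3, and the F test called 4 to 15. Signs turned in changes that were not called. TRINITY_DN33907_c0_g1_i11_1 ran from -0.31 to 0.15 at 72 h against 24 h (0.15 without T72 replicate 2). TRINITY_DN33440_c0_g2_i2_3 ran from -1.47 to 0.31 at 72 h against 48 h (0.31 without T48 replicate 2, 0.10 without T72 replicate 3) and from -0.72 to 0.84 at 72 h against 24 h (-0.72 without T72 replicate 2). TRINITY_DN27998_c0_g1_i1_1 ran from -0.20 to 0.020 at 72 h against 48 h (0.020 without T48 replicate 3). The cause was not tested.

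Same-numbered libraries did not deviate together (18 pairs, correlation -0.185 to 0.149, 3 over 0.1), so the numbers were not taken as pairs. With the replicate block, 0 members were higher and 1 lower at 48 h than at 24 h, 7 higher at 72 h than at 48 h, 2 higher and 0 lower at 72 h than at 24 h. The F test then called 8. Of features at 5 CPM or more, the block called 1.66% at 48 h against 24 h and 5.52% at 72 h against 48 h. It called 0.408% at 72 h against 24 h and 5.16% in the F test. The members' shares were 0.617%, 4.32%, 1.23% and 4.94% in the same order. Depth limits the rarest members, where 3 counts are 0.114 to 0.13 CPM.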

Other observations

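In 10 members (6.17%, against 11.4% of features at 5 CPM or more) replicate 2 was the highest library at both 48 h and 72 h. Rank 2 was one of them. Rank 32 had 48.3 CPM in T48 replicate 2 and 36.1 CPM in T72 replicate 2, with 10.6 to 20.6 CPM in the other T48 and T72 libraries and 5.45 to 6.72 CPM in CK. Rank 22 had 17.6, 46.3 and 31.8 CPM in CK, 77.1, 152 and 68.1 CPM in T48, and 194, 220 and 75.8 CPM in T72. These members were picked after their values were seen. A principal component of the members over the 9 stressed libraries held 30.8% of their variance, with T48 replicate 2 at -0.76, T72 replicate 3 at 0.31 and the other 7 libraries between -0.01 and 0.15.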
